A study of Homo sapiens with 2 samples.

Results

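G-quadruplexes (G4s) are 4-stranded structures that guanine-rich DNA folds into when runs of guanines stack on each other. The sequence usually taken as able to form one, the canonical potential G4-forming sequence (PQS), has 4 runs of 3 or more G separated by loops of 1 to 12 bases. Here the WT nuclear peaks without that sequence are described. They were 208 of the 515 peaks called in wild-type HEK293T cells, and 302 of the 510 peaks outside the mitochondrial sequence held a canonical PQS. Both strands of each hg38 peak interval were searched, so the choice used the sequence of each interval and not its signal values. The peak caller set the intervals from the signal, and members were shorter than the other peaks.

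The data come from CUT&Tag, in which a transposase tethered to an antibody cuts the DNA around the antibody, here against G4s. HEK293T is an established human embryonic kidney line. One library was of the wild-type line (WT) and the other of a line derived from it with CRISPR/Cas9 whose genotype is given as DNMT1_MUT and which carries an altered DNMT1, the enzyme that maintains 5-methylcytosine after replication (DNMT1-KO). That line is 1 clone, there was 1 peak list per genotype and no control library was analysed here, so no test across genotypes was possible and all intervals cover counting error over peaks or fragments only. Both lists hold far fewer peaks than the study describes for these cells, although their peaks are numbered without gaps. Each share below is therefore a share of these short lists and not of all G4 sites in the cells. The sample titles name the antibody BG4, whereas the peak names carry another token, 1H6, and which antibody gave the lists cannot be told from them.

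Sequences outside the canonical rule can also fold into G4s. Runs of only 2 G give thinner structures, a run may carry a bulge of another base, and loops can be long, at a cost in stability. The promoters where G4 antibodies commonly bind are commonly rich in CpG, poor in nucleosomes and open to transposase. Active genes of tRNAs and small nuclear RNAs are open as well, and mitochondrial DNA carries no nucleosomes.

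The edge of the motif rule is shown first, because the nearest members missed it by 1 base. The sequences below are from hg38, read 5′ to 3′ on the guanine-rich strand, with runs of at least 3 G in capitals. The first 4 stretches are from members whose longest loop was 13 bases, and the other 3 are from peaks that held a PQS with a loop of 12 bases.
HNRNPD-DT, chr4:82374078-82374111, minus strand: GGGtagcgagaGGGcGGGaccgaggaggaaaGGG
DACT3-AS1, chr19:46661529-46661558, plus strand: GGGaaGGGtgatctataaataGGGaatGGG
PIPOX, chr17:28952370-28952407, plus strand: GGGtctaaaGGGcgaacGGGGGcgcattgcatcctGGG
FBXL19, chr16:30923184-30923221, plus strand: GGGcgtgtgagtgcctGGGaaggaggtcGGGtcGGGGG
GDAP2 (holds the PQS), chr1:117929146-117929182, minus strand: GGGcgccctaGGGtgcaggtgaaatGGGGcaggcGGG
TEDC1 (holds the PQS), chr14:105490894-105490924, plus strand: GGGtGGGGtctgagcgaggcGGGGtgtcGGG
XRN2 (holds the PQS), chr20:21303627-21303660, plus strand: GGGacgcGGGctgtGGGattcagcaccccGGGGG

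Of the 208 members, 12 reached 4 runs with loops of at most 13 bases, 11 with 14 bases and 6 with 15 bases. On the other side, 19 peaks held the PQS only with a loop of 12 bases and 19 only with a loop of 11 bases. The pileups on the 2 sides of the edge overlapped. The 5 shortest peaks among the 13-base members, at HNRNPD-DT, at chr16:87560666-87561036, at ENSG00000286340, at LINC01237 and at chr13:27125519-27125907, had 34, 30, 18, 28 and 12 fragments over the summit, in that order. The 5 shortest peaks with a 12-base loop, at GDAP2, TEDC1, XRN2, chr5:80652052-80652406 and RRAS, had 14, 34, 16, 189 and 33 fragments. The peak with 189 fragments matches mitochondrial DNA in sequence, a class described below.

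The looser motifs of members are shown next, most of them at genes described below, together with the members of highest G4Hunter score. In the first 6 lines runs of at least 2 G are in capitals. In the next 2 lines capitals mark 3 runs of at least 3 G and 1 run interrupted by another base, and in the last 2 lines they mark runs of at least 3 G in the 25 bases of highest G4Hunter score, a measure of guanine runs on 1 strand.
RNVU1-15, chr1:144412552-144412564, plus strand: GGcGGGGcGGaGG
TRL-CAG2-1, chr16:57300206-57300219, plus strand: GGaGGaGGttgaGG
TRQ-TTG1-1, chr17:49192896-49192910, plus strand: GGccGGtctaGGaGG
RNU5B-1, chr15:65305005-65305019, plus strand: GGctGGGcgcGGtGG
C6orf52, chr6:10694619-10694631, minus strand: GGaGGaGGtGGGG
CIC, chr19:42268503-42268514, plus strand: GGtGGcGGttGG
CIC, chr19:42268846-42268866, minus strand: GAGGaGGGGctaaGGGacGGG
RPPH1, chr14:20343184-20343217, plus strand: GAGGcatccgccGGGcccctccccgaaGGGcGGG
HNRNPUL1, chr19:41264402-41264426, minus strand: gaggcgaaGGGGGaaaGGGGGGGGG
DDX3X, chrX:41333457-41333481, minus strand: GGGGGaGGGGaGGGGaagaggagga

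Some members had few or widely spaced guanine runs at their summit. Of each, up to 40 bases to either side of the summit are shown on the strand with more G, with runs of at least 3 G or 3 C in capitals. They are the 3 of lowest GC content, the protein-coding promoter of highest fold enrichment, a small nuclear RNA gene, and repeats of the ribosomal DNA and of other sequence, of which the one on chromosome 9 was picked after its values were seen.
Intergenic, chr3:93470486-93470566, plus strand: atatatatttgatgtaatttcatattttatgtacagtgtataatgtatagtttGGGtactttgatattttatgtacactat
ENSG00000286171, chr7:148941632-148941712, plus strand: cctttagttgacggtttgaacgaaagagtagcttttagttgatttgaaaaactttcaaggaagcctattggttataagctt
Intronic, chr7:155958994-155959074, plus strand: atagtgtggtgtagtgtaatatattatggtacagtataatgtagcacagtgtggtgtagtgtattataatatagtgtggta
UFM1, chr13:38349591-38349671, minus strand: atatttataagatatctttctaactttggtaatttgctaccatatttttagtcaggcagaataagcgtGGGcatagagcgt
RNU5F-1, chr1:44721444-44721524, minus strand: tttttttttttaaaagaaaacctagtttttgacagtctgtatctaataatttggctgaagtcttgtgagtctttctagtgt
Ribosomal DNA, chr21:8234476-8234556, minus strand: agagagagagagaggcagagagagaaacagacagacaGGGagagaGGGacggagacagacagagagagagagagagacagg
Ribosomal DNA, chr21:8219968-8220048, minus strand: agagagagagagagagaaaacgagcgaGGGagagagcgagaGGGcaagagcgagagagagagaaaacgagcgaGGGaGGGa
Unplaced KI270442.1, 391384 to 391464, minus strand: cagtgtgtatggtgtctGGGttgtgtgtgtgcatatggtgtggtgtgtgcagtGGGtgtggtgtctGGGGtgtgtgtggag
Intergenic, chr9:63823489-63823569, minus strand: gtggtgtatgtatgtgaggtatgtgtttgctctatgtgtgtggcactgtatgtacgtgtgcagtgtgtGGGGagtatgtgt

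Most members lay at promoters. A protein-coding transcription start site (TSS) lay within 1 kb of 161 of 208 members (77.4%), against 91.4% of the peaks that held the PQS. By the TSS nearest to the summit, 125 members (60.1%, exact Clopper-Pearson 95% interval 53.1 to 66.8%) belonged to protein-coding genes, against 252 of 302 PQS-holding peaks (83.4%). Long noncoding RNA genes took 35 members (16.8%) against 33 PQS-holding peaks (10.9%). Each peak has 1 class, so a member at a noncoding gene can also lie at a protein-coding promoter. The member at HNRNPD-DT, for example, also lies within 1 kb of a TSS of HNRNPD. Outside mitochondrial copies and ribosomal DNA, 83.8% of 191 members lay within 1 kb of a protein-coding TSS. Small RNA genes, such as those of tRNAs, small nuclear RNAs and microRNAs and of the U3 and ribonuclease P RNAs, took 17 members (8.17%) against 2 (0.662%). With peaks that hold 4 runs of which 1 is bulged left out as well, 98 members remained and the share was 14.3%. Pseudogenes outside mitochondrial copies took 0 members, which allows a share of up to 1.44%, against 1 PQS-holding peak. Nuclear copies of mitochondrial DNA, called by sequence match, took 13 members (6.25%) against 4, and ribosomal DNA took 4 against 2. The other 14 members and 8 PQS-holding peaks had no TSS within 1 kb.

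**Figure D1:**
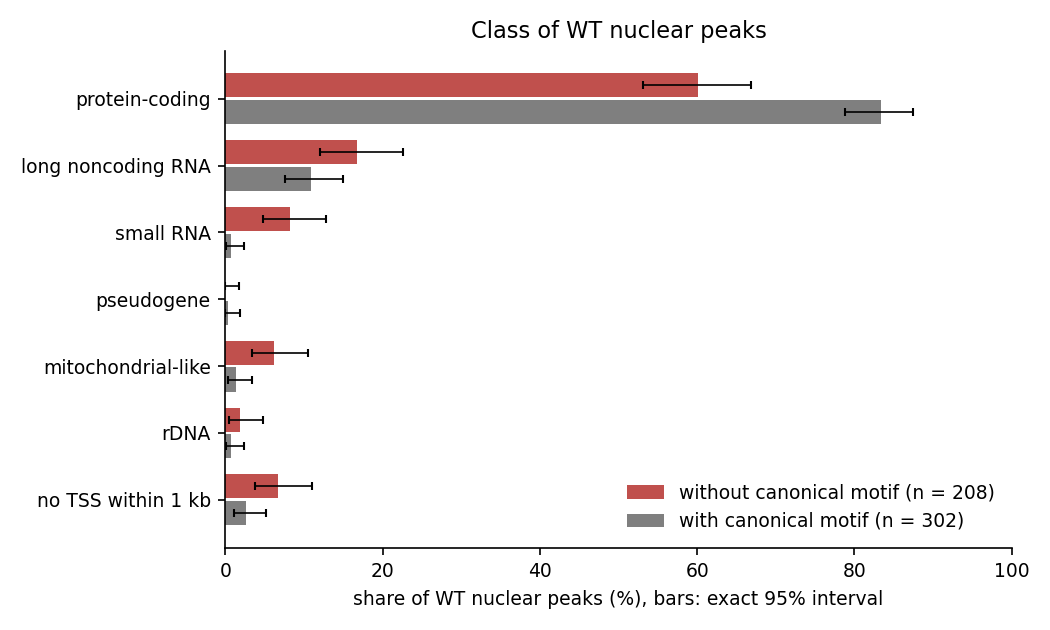
Share of WT nuclear peaks (x axis, percent) in each class (y axis) for the 208 peaks without the canonical PQS (red) and the 302 with it (grey), with exact 95% intervals as black bars. By the TSS nearest to the summit, protein-coding genes took 60.1% of the former and 83.4% of the latter, and small RNA genes 8.17% and 0.662%.

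Read the other way, the share of peaks without the PQS ranged widely over the classes. It was 17 of 19 at small RNA genes (89.5%, interval 66.9 to 98.7%) and 13 of 17 in mitochondrial-like sequence (76.5%, interval 50.1 to 93.2%). It was 35 of 68 at long noncoding RNA genes (51.5%, interval 39.0 to 63.8%) and 125 of 377 at protein-coding genes (33.2%, interval 28.4 to 38.2%). Both counts go by the nearest TSS, and some of the 68 peaks also lie within 1 kb of a protein-coding TSS. The interval of the small RNA genes lay wholly above that of the protein-coding genes. These classes also differed in GC content, with a median of 48.7% for members at small RNA genes and 57.8% for members at protein-coding genes, and what GC content adds to this order was not tested.

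Peak strength had overlapping intervals with and without the motif. Fold enrichment is the ratio, as MACS2 gives it, of the summit pileup plus 1 to the background estimate plus 1. It had a median of 6.60 in members (95% interval of the median 6.35 to 6.85) and 6.46 in PQS-holding peaks (6.35 to 6.66). The pileup, the number of fragments over the summit recovered from the listed values, had a median of 25.5 fragments against 27.5. Without mitochondrial-like and ribosomal DNA, and with peaks cut into 4 equal groups by fold enrichment, members made up 49 of 122 peaks in the lowest (40.2%) and 44 of 122 in the highest (36.1%). Over the 191 members outside those classes, fold enrichment had a Spearman rank correlation of 0.01 with the G4Hunter score and -0.07 with GC content, which is a description over peaks of 1 list. Members were shorter, with a median of 415.5 bp against 456.5 bp, and a longer interval has more room for a motif.

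Members were less GC-rich than the peaks with the PQS and held a similar density of CpG for their composition. The median GC content was 56.7% (interval 55.9 to 58.4%) against 64.5% (63.3 to 65.1%). The motif rule itself leaves out GC-rich sequence, so this difference is a description. CpG observed/expected, the count of CpG over that expected from the C and G present, had a median of 0.756 (interval 0.721 to 0.793) against 0.766 (0.734 to 0.785). At protein-coding genes it was 0.803 in members and 0.768 in PQS-holding peaks. With a GC content of at least 50% and an observed/expected of at least 0.6 as the limits of a CpG island-like peak, 133 of 208 members (63.9%) and 83.4% of PQS-holding peaks passed, and at protein-coding genes 98 of 125 (78.4%) and 87.3% did.

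The classes of members fell in different parts of this plane. Below 50% GC lay 45 members (21.6%, interval 16.2 to 27.9%) against 2.98% of PQS-holding peaks. All 13 mitochondrial-like members and all 4 in ribosomal DNA were below 50%, as were 10 of 17 at small RNA genes, 7 of 14 without a TSS, 10 of 125 at protein-coding genes and 1 of 35 at long noncoding RNA genes. The lowest GC contents were 21.5% at chr3:93470362-93470743, 27.8% at ENSG00000286171 and 32.8% at chr7:155958727-155959608. The highest were 75.8% at LINC01003, 74.3% at MYH10, which encodes a nonmuscle myosin heavy chain, and 71.8% at ERMARD. CpG observed/expected was lowest in members without a TSS (median 0.280), followed by ribosomal DNA (0.306, 4 peaks) and mitochondrial-like members (0.410), and it was 0.664 at small RNA genes.

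**Figure D2:**
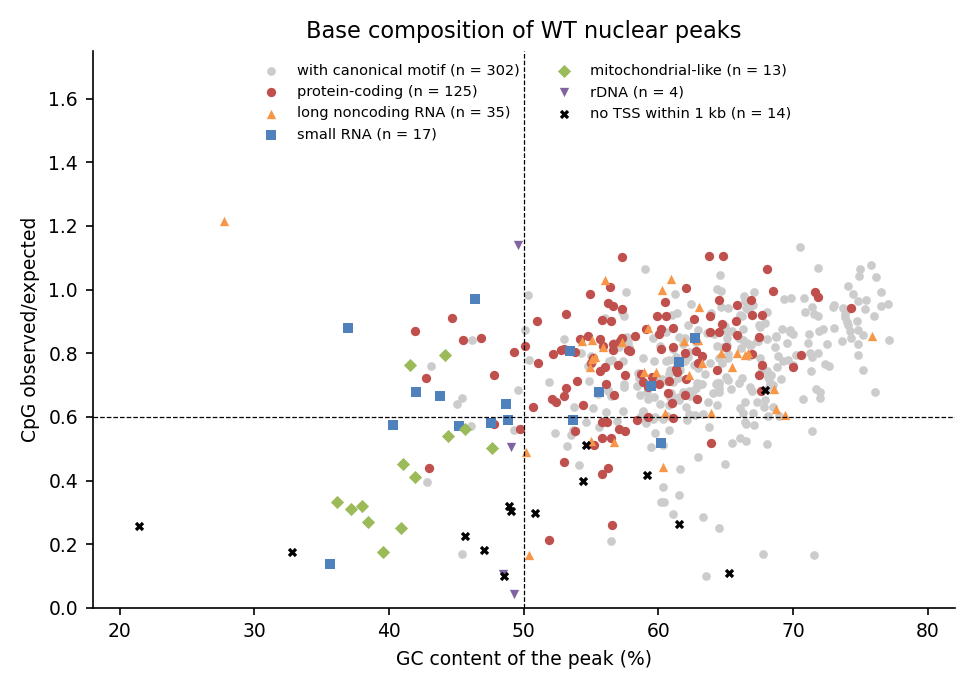
CpG observed/expected (y axis) against GC content of the peak in percent (x axis) for the 208 members by class (coloured symbols) and the 302 PQS-holding peaks (grey), with dashed lines at 50% and 0.6. Protein-coding members sit mostly with the grey points in the upper right, whereas the 13 mitochondrial-like members all sit below 50% GC.

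Around the summits, protein-coding members were below PQS-holding peaks in mean GC content. In the 50 bp just upstream of the summit in genome orientation, the mean GC content was 59.5% at protein-coding members and 64.6% at PQS-holding peaks. Bins centred 975 bp upstream had means of 47.8% and 49.7%. At small RNA genes the bin at the summit had a mean of 48.5% and the bins 975 bp upstream and downstream 47.8% and 52.7%. The bins between varied, with the highest means on the 2 sides 55.3% at -325 bp and 54.7% at 225 bp. The lowest were 41.8% at -875 bp and 45.6% at 775 bp. Each of these means is over 17 peaks.

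**Figure D3:**
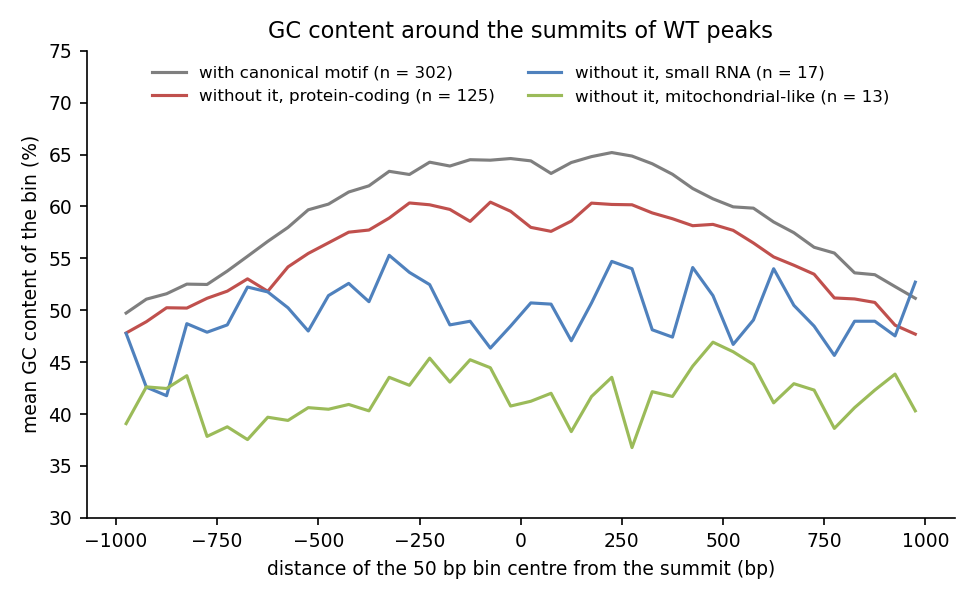
Mean GC content in percent (y axis) of 50 bp bins against the distance of the bin from the summit in bp (x axis), for PQS-holding peaks (grey, n = 302) and for members at protein-coding genes (red, n = 125), small RNA genes (blue, n = 17) and in mitochondrial-like sequence (green, n = 13). The grey and red lines form broad plateaus around the summit, with 64.6% and 59.5% in the bin just upstream of it, and are at 49.7% and 47.8% at -975 bp.

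Looser guanine motifs were common in members. A motif of 4 runs of at least 2 G with loops of 1 to 7 bases, called the 2-G motif here, was found in 185 of 208 members (88.9%, interval 83.9 to 92.9%), and with loops of 1 to 4 bases in 164 (78.8%). Runs of at least 3 G were themselves rarely missing, since 202 members (97.1%) held at least 4 of them on 1 strand, with a median of 11 on the richer strand against 17 in PQS-holding peaks. They lay too far apart for the rule: the smallest limit on loop length that admitted 4 runs had a median of 24 bases in the 198 members where such a limit of up to 200 bases existed. With loops of up to 30 bases, 134 members (64.4%) held 4 runs. Only 3 such runs in a row, with loops of up to 12 bases, were found in 117 members (56.2%), and 4 runs of which 1 was bulged in 110 (52.9%). A G4Hunter score of at least 1.2 in some 25-base window was reached by 161 members (77.4%), and of at least 1.5 by 93 (44.7%) against 93.0% of PQS-holding peaks. The motif rule itself splits the peaks by guanine runs, so the differences from PQS-holding peaks in runs and score are descriptions.

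Such motifs are frequent in promoters generally, so 2 backgrounds were measured the same way. The first was the 415 bp centred on 1 TSS of each of 20033 protein-coding genes, of which 9597 held no canonical PQS. That TSS was the outermost start over the annotated transcripts of the gene, whereas peaks were set beside any annotated TSS. Whether it is the start in use in these cells was not tested. The second was the intervals of the same length as each member placed 2 kb to either side of it, of which 374 of 415 held none. The 2-G motif was found in 84.6% of promoter windows without the PQS and 67.1% of flanking intervals without it, against 88.9% of members. The long-loop motif was found in 50.3% and 17.9%, against 64.4% of members. A bulged run was found in 44.5% and 13.6%, against 52.9% of members. G4Hunter scores of at least 1.5 were found in 34.9% and 13.6%, against 44.7%. The intervals of the members (57.5 to 70.9% for the long loops, 45.9 to 59.8% for the bulge and 37.8 to 51.7% for G4Hunter) lay above the values of both backgrounds. The 2-G motif with loops of 1 to 7 bases was the exception, since the members' interval (83.9 to 92.9%) held the promoter value of 84.6%.

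**Figure D4:**
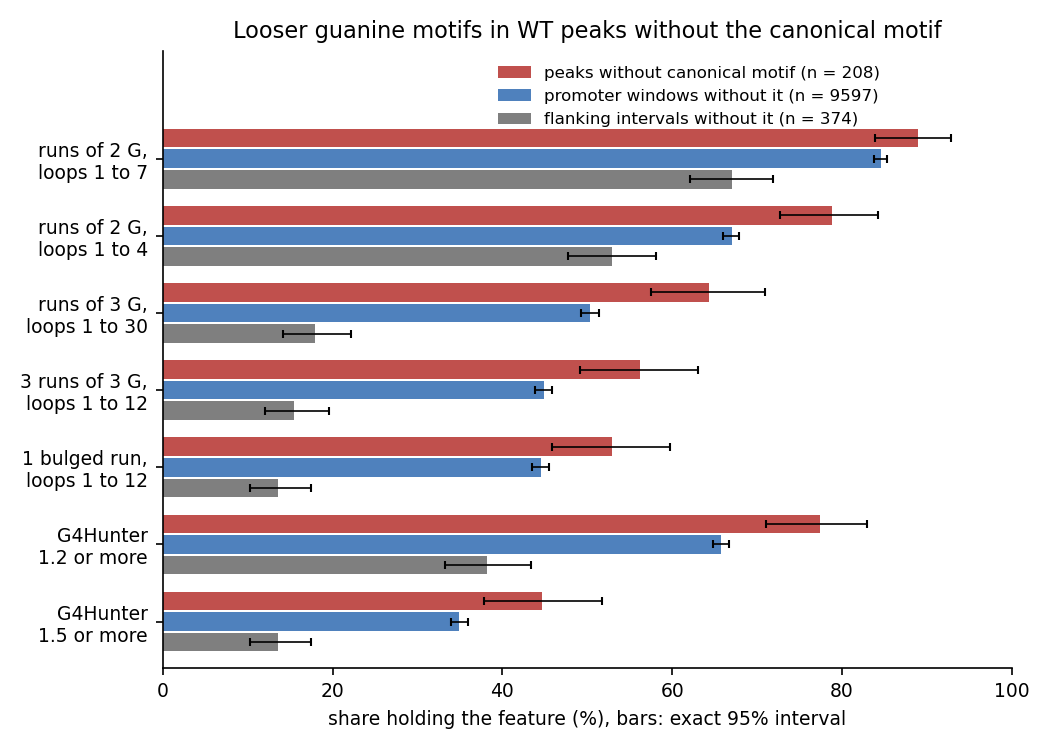
Share of intervals (x axis, percent) that hold each looser motif or G4Hunter score (y axis), for the 208 members (red), 9597 promoter windows of 415 bp without the canonical PQS (blue) and 374 flanking intervals without it (grey), with exact 95% intervals as black bars. The long-loop motif was held by 64.4%, 50.3% and 17.9%.

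These windows also differ from members in composition, with a median GC content of 54.0% in promoter windows without the PQS and 42.2% in flanks without it, and how much of each difference follows GC content was not tested. In bands of GC content the share of peaks without the PQS was below that of promoter windows in each of 6 bands, and the promoter value lay inside the interval of the peaks in all but the band below 50%. Between 60 and 65% GC, 49 of 140 peaks (35.0%, interval 27.1 to 43.5%) and 42.0% of promoter windows lacked it. Between 65 and 70% the shares were 22 of 102 (21.6%, interval 14 to 30.8%) and 29.6%, and below 50% they were 45 of 54 (83.3%, interval 70.7 to 92.1%) and 93.2%. The windows were all 415 bp long, whereas the median length was 456.5 bp in PQS-holding peaks and 775 bp in mitochondrial-like members. A longer interval has more room for a motif, and the part of length in these shares was not tested.

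A canonical PQS often lay just outside the peak or across its edge. With each interval extended by 250 bp on both sides, 101 of 208 members (48.6%, interval 41.6 to 55.6%) had one. The same was so for 36.7% of promoter windows without a PQS of their own. The far end of the nearest PQS wholly outside the peak lay at a median of 208 bp from the edge. Within 2 kb, 167 members had such a PQS and 41 had none. That is 80.3% of members, against 92.1% of PQS-holding peaks with a further PQS outside their edges within 2 kb. The peak edges are those of the peak caller, so a PQS outside the edge can still lie within a few fragment lengths of the summit.

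At the other end, 23 members held neither the canonical PQS nor the 2-G motif. They were 10 at protein-coding genes, 5 without a TSS, 3 in ribosomal DNA, 2 in mitochondrial-like sequence, 2 at small RNA genes and 1 at a long noncoding RNA gene. Their median GC content was 47.8% and their median fold enrichment 7.27, against 57.5% and 6.55 in the 185 members with the 2-G motif. Among those at protein-coding genes were the promoters of UFM1 (a ubiquitin-like modifier), H2BC11 (a histone H2B), ANAPC7 (a subunit of the anaphase-promoting complex), CDC45 (a replication factor), NUP88 (a nuclear pore protein) and WRAP53 (a Cajal body protein), where another member within 1 kb of the same gene holds the 2-G motif. Of these, ANAPC7, CDC45, NUP88 and WRAP53 were picked after their values were seen.

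Protein-coding members sat close to the TSS. The summit lay within 250 bp of the nearest TSS in 111 of 125 (88.8%), upstream of it in 57 and downstream in the others. The summit fell in a UTR in 51, in an intron in 28, outside genes in 26, in a coding exon in 12 and in a noncoding exon in 8. PQS-holding peaks at protein-coding genes had their summit within 250 bp of the TSS in 208 of 252 (82.5%) and in a UTR in 33.7%, against 40.8% of members.

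The protein-coding members of highest fold enrichment were UFM1 (11.1, 23 fragments, GC 45.5%), C6orf52 (10.7, 36 fragments, GC 53.8%) and CAND1, which encodes an exchange factor of cullin ubiquitin ligases (9.70, 30 fragments, GC 51.0%). DDX42, an RNA helicase gene, followed with 9.21 and 36 fragments, and SLC35A5, of a sugar transporter family, with 9.17 and 28 fragments. Among the 10 members of highest fold enrichment outside mitochondrial-like and ribosomal DNA, 5 were at protein-coding genes, 2 at long noncoding RNA genes, 2 had no TSS and 1 was at a small RNA gene.

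By function, members took in genes of the splicing and translation machinery, as did the peaks with the PQS. The lists were drawn by gene symbol and hold some genes of other function, among them RPL7L1 (ribosome assembly) at members and EEF2KMT (a methyltransferase) and ZBTB8OS at PQS-holding peaks, each counted as listed. Of 76 splicing factor genes listed, 7 lay at members and 6 at PQS-holding peaks. The former were HNRNPA2B1, HNRNPD, HNRNPL, HNRNPUL1, SF3B3, SNRPD2 and SRSF1. Their peaks, 1 per gene, had 31, 34, 50, 27, 35, 22 and 18 fragments. Of 104 cytosolic ribosomal protein genes, 5 lay at members (among them RPL5, RPL7, RPL7L1 and RPL10A) and 3 at PQS-holding peaks. Of 71 translation factor genes, 4 lay at members (EIF2A, EIF2S1, EIF3B and EIF3E) and 5 at PQS-holding peaks. Of 93 histone genes, 4 lay at 2 members, the divergent pairs H2AC11 with H2BC11 and H2AC25 with H2BC26, and 3 at PQS-holding peaks. Of 578 zinc finger genes, 2 lay at members (ZNF207 and ZNF335) and 12 at PQS-holding peaks. Of 86 heat shock and chaperonin genes, 3 lay at members (CCT3, DNAJB4 and HSPA9) and 5 at PQS-holding peaks, in both cases at 3 peaks. Of 40 proteasome genes, 0 lay at either. Over all protein-coding genes, 224 of 20020 (1.12%) had a TSS within 1 kb of a member and 357 (1.78%) within 1 kb of a PQS-holding peak. The shares at members were 9.21% for splicing factors, 5.63% for translation factors, 4.81% for ribosomal proteins, 4.30% for histones, 3.49% for chaperones and 0.346% for zinc finger genes. At PQS-holding peaks they were 7.89%, 7.04%, 2.88%, 3.23%, 5.81% and 2.08%, in the same order. Each share at members rests on 7 genes or fewer.

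Short promoter elements were counted in the 200 bp centred on the summit, on both strands. GGGCGG, the GC box bound by SP and KLF factors, was found in 69 of 208 members (33.2%) and 57.0% of PQS-holding peaks. With only peaks at protein-coding genes, the shares were 37.6% of members (interval 29.1 to 46.7%) and 57.1% of PQS-holding peaks. In 200 bp windows centred on the same outermost TSS of each protein-coding gene, the share was 46.9%. GGGCGG holds a run of 3 G itself, so it overlaps with the motif rule. CCAAT, bound by NF-Y, was found in 63 members (30.3%), 26.2% of PQS-holding peaks and 25.9% of TSS windows. TATAAA, a form of the TATA box, was found in 14 members (6.73%), 2.32% of PQS-holding peaks and 7.05% of TSS windows. Most of these 14 members were not at protein-coding genes. At those genes TATAAA was found in 5 of 125 members (interval 1.31 to 9.09%) and 2.38% of PQS-holding peaks. That interval held the shares of the protein-coding PQS-holding peaks and of the TSS windows. The interval of the members for CCAAT (24.1 to 37.0%) held the shares of both other sets. CACGTG, an E box bound by MYC and USF factors, was found in 15 members (7.21%), 6.62% of PQS-holding peaks and 5.87% of TSS windows. Longer elements were rare in members. The ETS element CCGGAAGT was found in 5 members (4.49% of TSS windows) and the NRF1 element GCATGCGC in 6 (2.99%). The YY1 element AAGATGGCG was found in 4 (2.04%), and TGACGTCA, the CRE, in 1 (1.87%). The ZBTB33 element CTCGCGAG was found in 1 (0.918%), and the strict tRNA promoter element GTTCGANTC in 0 of 208 (0.140%).

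The 17 small RNA members took in 4 genes of U5 small nuclear RNA, RNU5A-1, RNU5B-1, RNU5D-1 and RNU5F-1, a part of the spliceosome, with 27, 26, 30 and 22 fragments at their summits. RNU11, of the minor spliceosome, had 34 fragments, and RPPH1, the RNA of ribonuclease P, had 28. RNVU1-15, a variant U1 gene, had the highest fold enrichment of the class (11.2) with 21 fragments. A U3 snoRNA gene copy had 16 fragments. Counted by any TSS within 1 kb instead of the nearest, the contrast was smaller. Of 1831 spliceosomal and variant small nuclear RNA genes, many of them annotated copies, 6 (0.328%) lay at members and 3 (0.164%) at PQS-holding peaks (RNU4ATAC, RNU7-1 and RNVU1-6). Of 1076 other RNA polymerase III and structural RNA genes, 1 lay at each (RPPH1 and RMRP, 0.0929%). Of 500 small nucleolar and Cajal body RNA genes, with some of their host genes, 5 lay at each (1.00%). At U5 genes the summit lay 25 to 469 bp from the nearest TSS.

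The tRNA members numbered 8 by nearest TSS, with 20 to 45 fragments at the summit, GC contents from 40.3 to 61.6% and summits 53 to 471 bp from an end of the gene. TRL-CAG2-1 had 45 fragments and a fold enrichment of 8.85, TRP-CGG1-1 35 and 7.31, and TRQ-TTG1-1 29 and 7.23. Of 429 tRNA genes, 20 lay within 1 kb of 11 members (4.66%) and 4 lay within 1 kb of 3 PQS-holding peaks (0.932%). tRNA genes cluster, so genes at 1 peak are not separate observations. The tRNA positions are those of RefSeq, which here give no strand, and 23 of the 26 tRNA genes near a peak of either list held GTTCNANNC, the letters of an internal promoter element.

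Ribosomal DNA gave members of low sequence complexity. The peak at chr21:8234280-8234708 had the second highest fold enrichment of all members (20.6), with 156 fragments, and its summit lay 15214 bp beyond the end of an annotated 45S gene, in the spacer between ribosomal RNA genes. C and T made up 87.2% of its plus strand, and 98.8% of it was of low complexity. The peaks at chr21:8420070-8420491 (31 fragments) and chr21:8219795-8220169 (32 fragments) lay 17880 and 706 bp beyond such an end, with 82% and 84.8% C and T. The peak on the unplaced sequence KI270733.1 had 149 fragments. Reads from many near-identical units are placed on few copies in the assembly, so pileups here can count several loci at once.

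Of all members, 7 were of low complexity over more than 50% of their length, 3 of them in ribosomal DNA and 4 without a TSS. The latter were chr7:155958727-155959608, chr9:63823166-63823584 and peaks on the unplaced sequences GL000219.1 and KI270442.1. The peaks on GL000219.1 and chromosome 9 had 13 and 11 fragments, and C and A made up 42.9% and 41.8% of the first and 43.4% and 36.5% of the second on the plus strand. Another copy at 95% identity over 80% of the peak or more was found in the genome for 12 members (5.77%). Repeats were described only by these measures, since no repeat annotation was used here, and the gene annotation used holds no TSS on the unplaced sequences.

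The member on chromosome 3 had the lowest GC content of all members. At chr3:93470362-93470743 it had 92 fragments and a fold enrichment of 19.1 at a GC content of 21.5%, a G4Hunter score of 0.72 and 4 runs of at least 3 G on its richer strand. Both lists call the peak with the same start and end. Its sequence above is AT-rich with a single run of 3 G.

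The 13 mitochondrial-like members had a median identity of 79.7% to mitochondrial DNA (range 73.6 to 97.9%) and lay mostly at annotated mitochondrial pseudogenes such as MTCO3P27 (156 fragments), MTCO1P2 (60) and MTND4LP1 (65). Their pileups ranged from 10 to 2918 fragments, and their median GC content was 41%. The highest, at chr17:22521161-22521856, had 2918 fragments and a fold enrichment of 27.2. Reads from mitochondrial DNA can map to such copies, and their part in these pileups was not tested.

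Overlap with the DNMT1-KO list was then counted. That list holds 92 peaks, so a WT peak can lack a partner in it because it is short, and the shares below say how often these 2 lists coincide and not how many sites the cells have in common. Of the 208 members, 28 (13.5%, interval 9.14 to 18.9%) overlapped a DNMT1-KO peak by at least 1 bp, against 10.8% of all 510 WT nuclear peaks and 27 of 302 PQS-holding peaks (8.94%). The shared members were unevenly spread over the classes. Shared were 12 of 13 mitochondrial-like members, 2 of 4 in ribosomal DNA, 4 of 14 without a TSS, 3 of 17 at small RNA genes, 2 of 35 at long noncoding RNA genes and 5 of 125 at protein-coding genes. Outside mitochondrial-like and ribosomal DNA, 14 of 191 members (7.33%, interval 4.07 to 12%) and 23 of 296 PQS-holding peaks (7.77%, interval 4.99 to 11.4%) were shared, against 7.60% of all 487 such peaks. At protein-coding genes 5 of 125 members (interval 1.31 to 9.09%) and 21 of 252 PQS-holding peaks (8.33%, interval 5.23 to 12.5%) were, and these intervals overlap. A WT peak without a DNMT1-KO peak has no value in the other list, so its absence was not a measured fall.

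Sharing was also counted by the strength of the WT peak. With members cut into 4 groups by −log10 p, 0 of 48 members outside mitochondrial-like and ribosomal DNA were shared in the lowest (exact interval 0 to 7.40%; 3 counts allow up to 6.25%), 3 of 48 in the next, 4 of 47 in the group after it and 7 of 48 in the highest (14.6%, interval 6.07 to 27.8%). The intervals of the lowest and highest groups overlap, and the part that the short DNMT1-KO list has in this count was not tested. In that range of −log10 p 14 of 100 PQS-holding peaks were shared. Of the 28 DNMT1-KO partners, 26 also held no canonical PQS. In the DNMT1-KO list as a whole, 57 of 88 nuclear peaks (64.8%, interval 53.9 to 74.7%) held none, of which 36 were mitochondrial-like, and 29 of the 57 overlapped a WT peak.

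Each pileup is taken at the summit in its own list, and the summits of a shared peak need not coincide. A DNMT1-KO summit lay within 250 bp for 12.5% of the 208 members, against 13.5% with any overlap. At H2BC11 the 2 peaks overlap only in part. At the shared protein-coding members the pileups in WT and DNMT1-KO were 55 and 32 fragments at CIC (a transcriptional repressor), 42 and 27 at FBXL19 (an F-box protein), 38 and 21 at H2BC11, 37 and 25 at PIPOX (pipecolic acid oxidase) and 23 and 31 at SWSAP1 (a recombination protein). CIC, FBXL19, H2BC11 and PIPOX were lower in DNMT1-KO and SWSAP1 was higher, and the exact Poisson 95% intervals of both counts overlapped at all 5. At small RNA genes they were 45 and 32 at TRL-CAG2-1, 29 and 20 at TRQ-TTG1-1 and 26 and 27 at RNU5B-1. At the long noncoding RNA gene ENSG00000286181 they were 25 and 20. The 4 shared members without a TSS had 92 and 87 fragments (chr3:93470362-93470743), 83 and 59 (chr21:8992705-8993458), 28 and 22 (chr19:53980514-53980879) and 26 and 26 (chr7:155958727-155959608).

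Over the 14 shared members outside mitochondrial-like and ribosomal DNA, the DNMT1-KO pileup was lower in 11, equal in 1 and higher in 2, with a median log2 ratio of DNMT1-KO over WT of -0.49. The background recovered at the same peaks had a median log2 ratio of -0.50 and was lower in 13. At the 23 shared PQS-holding peaks the pileup was lower in 22 with a median of -0.54 and the background median was -0.75. The total of fragments per library is not given in the lists, and a difference in depth between the libraries cannot be told apart from a difference at these sites.

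In ribosomal DNA the pileup was 156 in WT and 49 in DNMT1-KO at chr21:8234280-8234708, and 149 and 65 on KI270733.1. The Poisson intervals did not overlap at either (132 to 182 against 36.3 to 64.8, and 126 to 175 against 50.2 to 82.8), and the backgrounds were lower too, with log2 ratios of -1.72 and -1.03. At the 12 shared mitochondrial-like members the pileup was higher in DNMT1-KO in 9, with a median log2 ratio of 0.39 and a background ratio of 0.26. Over all 28 shared members the intervals were apart at 5, with DNMT1-KO lower at the 2 in ribosomal DNA and higher at 3 in mitochondrial-like sequence.

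**Figure D5:**
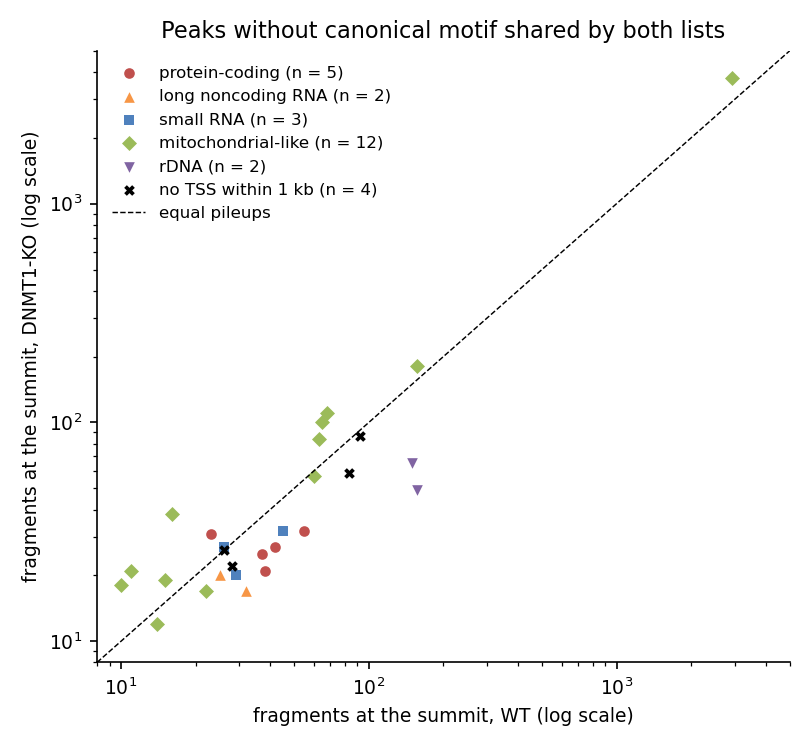
Fragments at the summit in DNMT1-KO (y axis, log scale) against WT (x axis, log scale) for the 28 members shared by both lists, by class, with a dashed line at equal pileups. The 2 ribosomal DNA peaks lie furthest below the line (156 against 49 and 149 against 65 fragments in WT and DNMT1-KO), and 9 of 12 mitochondrial-like peaks lie above it.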

How the data were processed

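The authors deposited 1 MACS2 peak list per library, WT and DNMT1-KO. Per the submitters' processing notes, reads were trimmed with Trim Galore 0.6.7, aligned to hg38 with Bowtie2 2.4.5, deduplicated with Picard and called with MACS2 2.2.7.1. The study's methods name an earlier MACS2 version. They describe replicate batches of cells whose alignments were merged for signal tracks, and IgG as the background of a signal comparison. Whether the peaks were called on merged alignments or against IgG is not given in the sources used here. Blacklisted regions are said to have been removed. Besides positions and summits, the deposited columns hold a fold enrichment (a ratio) and p- and q-values as −log10. The score that the authors deposited, as MACS2 made it, is 10 times the −log10 q-value and served only as a check.

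Peak sequences were read from hg38 and searched with Python 3.11.15. Genes are those of GENCODE 44, with tRNA genes from RefSeq (GRCh38.p14). A peak was mitochondrial-like where its summit lay in a blastn 2.17.0 hit to mitochondrial DNA of 90 bp or more with 70% or more identical bases. Ribosomal DNA was called likewise (150 bp, 85%), only on acrocentric chromosomes and unplaced sequences, and that limit was set after the lists were seen. Other peaks took the class of the TSS nearest to the summit within 1 kb. The pileup was recovered by solving the MACS2 Poisson formula with a pseudocount of 1. It came out whole (tolerance 0.02) in 99.6% of WT and 100% of DNMT1-KO peaks, and in all 208 members. The lowest pileup was 10 fragments in WT and 11 in DNMT1-KO, which limits what each list can show.

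Shares have exact Clopper-Pearson 95% intervals and medians have order-statistic intervals. A share of 0 is limited at 3 counts. No p-values were computed. Named peaks were the 10 members of highest fold enrichment outside mitochondrial-like and ribosomal DNA, the first 3 of each class, shared members outside mitochondrial-like DNA, the nearest 5 on each side of the motif rule, the extremes of GC content and G4Hunter score, and listed genes. Names beyond this rule (ANAPC7, CDC45, NUP88, WRAP53, U3, MTCO1P2, MTND4LP1 and 2 low-complexity peaks) were chosen after their values were seen. The members and lists were chosen with earlier results of these data known. A few named results are not reported here.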

Additional observations from a re-analysis of the deposited data

How the results depend on the processing

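Of 66 recomputed values, 40 stayed within the interval or factor of the reported value and 26 moved. With loops of 1 to 7 bases the median GC content was 59.2% and the long-loop share 75.6%. With loops of 1 to 20 bases 138 members remained by the rule, with a median GC content of 55.5% and a long-loop share of 46.4%. Searching only 200 bp centred on the summit gave 323 members, a median GC content of 60.1%, 83.9% within 1 kb of a protein-coding TSS, 93.2% with the 2-G motif and 77.4% with long loops. Allowing 1 bulged run left 98 members, with a median GC content of 53.0%, CpG observed/expected of 0.694, 68.4% near a protein-coding TSS, 14.3% at small RNA genes, 78.6% with the 2-G motif and 37.8% with long loops. Restricting to the upper part of the list, split at the WT median of fold enrichment, left 112 members, 11.6% mitochondrial-like and 20.5% shared with DNMT1-KO. Without the mitochondrial-like and ribosomal DNA classes, whose shares are then 0 and 0 by construction, 83.8% lay near a protein-coding TSS and 7.33% were shared. Loops of 1 to 4 bases in the 2-G motif gave 78.8%. A pseudocount of 0 gave 4.66% whole pileups. No paired analysis was possible because each genotype has 1 peak list. With pileups near 25.5 fragments, sites with few fragments were not detectable.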
